A study of Arabidopsis thaliana with 6 samples.

Results

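The histone genes of Arabidopsis thaliana were followed in seedlings with and without a working HY5 gene. The genes were chosen by family membership and locus, with no threshold on expression: 44 loci for H4, H3, H2B, H2A and H1, of which 40 were among the 26984 genes of the expression tables. The other 4 (AT1G09200 and AT3G27360 of the H3.1 class, AT4G40030 and AT4G40040 of the H3.3 class) were not analysed here. Because the list was drawn up with results of this contrast known, all differences between the genotypes given for these genes are a description of the libraries, and no test over the list was made.

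The series compared wild-type seedlings of the Col-0 accession (3 libraries, numbered 1 to 3) with seedlings of the hy5-215 mutant (3 libraries, numbered 4 to 6). Both genotypes were 7 days old, were grown in short days and were harvested as whole seedlings at zeitgeber time 20 h, and no further treatment or transgene is named. HY5 encodes a transcription factor of the basic leucine zipper family, known for driving seedling development in light. Values are FPKM, fragment counts scaled by transcript length and by the library's mapped fragments, so levels of different genes are compared per length, and the libraries are named by their numbers throughout.

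Nucleosomes wrap DNA around an octamer of the core histones H2A, H2B, H3 and H4, and H1 binds the linker between them. Replication-dependent histones (H4, H3.1, canonical H2A and H2B) are made mainly in S phase, when new DNA is packaged, so their transcripts are abundant in dividing tissue such as the meristems of a seedling. Variant histones are placed outside replication or in particular chromatin: H3.3 in transcribed genes, CENH3 at centromeres, H2A.Z near gene starts, H2A.W in heterochromatin and H2A.X throughout, where it is phosphorylated at DNA breaks.

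Promoters of plant histone genes are known for a pair of short elements, the octamer CGCGGATC, tied to S-phase transcription in cereals and Arabidopsis, and the hexamer ACGTCA. The hexamer contains ACGT, the core that basic leucine zipper factors contact. Both were searched on both strands from 250 bases before to 50 bases after each annotated start in the RefSeq TAIR10.1 genome. Only exact matches were counted, so a copy with a changed letter was missed. The windows around the octamer are shown because this element is rare elsewhere and recurs before genes of H4, H3.1, H2A, H2A.W and H1. Each is read 5′ to 3′ in the gene's own sense, capitals mark the octamer, and GATCCGCG is the same element in the opposite direction:
AT1G07660, chr1:2368681-2368740, plus strand: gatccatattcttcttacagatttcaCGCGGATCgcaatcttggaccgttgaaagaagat
AT5G59690, chr5:24051377-24051436, plus strand: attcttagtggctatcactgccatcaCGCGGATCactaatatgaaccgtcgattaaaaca
AT5G10400, chr5:3271044-3271103, minus strand: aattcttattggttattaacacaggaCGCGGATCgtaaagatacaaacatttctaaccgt
AT5G65360, chr5:26120674-26120733, minus strand: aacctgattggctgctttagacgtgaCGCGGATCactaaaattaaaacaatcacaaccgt
HTA10 (AT1G51060), chr1:18926711-18926770, plus strand: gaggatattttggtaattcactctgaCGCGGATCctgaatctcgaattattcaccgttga
HTA10 (AT1G51060), chr1:18926775-18926834, plus strand: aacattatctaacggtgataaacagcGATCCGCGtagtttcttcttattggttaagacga
HTA13 (AT3G20670), chr3:7229296-7229355, plus strand: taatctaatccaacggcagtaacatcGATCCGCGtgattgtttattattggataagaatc
HTA6 (AT5G59870), chr5:24116303-24116362, minus strand: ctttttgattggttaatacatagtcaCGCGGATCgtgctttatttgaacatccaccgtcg
AT1G06760, chr1:2077762-2077821, minus strand: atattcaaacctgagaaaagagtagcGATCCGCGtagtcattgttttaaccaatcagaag

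The octamer occurred in 38 of 26983 promoters of the genes in the tables (0.141%) and in 7 of the 27 promoters of replication-dependent histone genes (25.9%). Those 7 were 2 of 8 H4 genes, 3 of 5 H3.1 genes (AT1G09200 among them) and 2 of 4 canonical H2A genes. None of the 10 H2B promoters held it as an exact match. Outside these classes it lay before HTA6, AT4G40040 and AT1G06760.

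H2B promoters carried the hexamer, and the windows of 7 H2B genes are shown because this element is common to nearly all of the class. Capitals mark ACGTCA:
HTB1 (AT1G07790), chr1:2412881-2412938, plus strand: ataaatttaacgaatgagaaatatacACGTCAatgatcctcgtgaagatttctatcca
HTB2 (AT5G22880), chr5:7652878-7652935, minus strand: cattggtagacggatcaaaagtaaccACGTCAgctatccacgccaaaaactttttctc
AT2G28720, chr2:12326732-12326789, plus strand: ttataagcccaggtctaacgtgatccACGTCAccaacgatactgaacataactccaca
AT2G37470, chr2:15736653-15736710, plus strand: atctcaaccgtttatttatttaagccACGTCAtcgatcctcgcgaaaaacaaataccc
AT3G53650, chr3:19889175-19889232, plus strand: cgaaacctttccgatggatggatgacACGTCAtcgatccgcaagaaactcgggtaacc
HTB9 (AT3G45980), chr3:16898138-16898195, minus strand: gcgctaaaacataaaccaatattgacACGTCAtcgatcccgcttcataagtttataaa
HTB11 (AT3G46030), chr3:16914188-16914245, minus strand: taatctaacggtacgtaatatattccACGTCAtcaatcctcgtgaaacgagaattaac

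The hexamer was found in 9.14% of all promoters, in 9 of 10 H2B promoters and in 12 of 27 replication-dependent promoters (44.4%). The other 3 of those 12 were AT1G07820, AT3G27360 and AT5G10400. Among variant genes it occurred in 1 of 14, AT5G10980, which held 2 copies. In 4 of the 7 windows (HTB1, AT2G37470, AT3G53650 and HTB9) the hexamer was followed after 2 bases by GATC, a pattern searched for only after the sequences had been seen. This pattern was present in 17 of 26983 promoters (0.063%) and in 7 of the 44 histone promoters (15.9%), 5 of them H2B. In HTB1, AT2G37470 and AT3G53650 the GATC opened a stretch that differs at 1 letter from the reversed octamer GATCCGCG.

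Other letters searched were the G-box CACGTG, a binding sequence of HY5, in 3 of 27 replication-dependent, 2 of 14 variant and 1 of 3 linker promoters against 7.66% of all. ACGT, which is contained in both the G-box and the hexamer, was in 19 of 27 (70.4%) against 49.9% of all and in 6 of 14 variant promoters (42.9%). TATAAA was in 19 of 27 against 52.2% and in 4 of 14 variant promoters. Any of 4 forms of the E2F site (TTTCCCGC, TTTGGCGC, TTTCGCGC or TTTGCCGC) was in 3 of 27 (AT3G45930, AT3G46320 and HTB2) against 1.77%. The telo box AAACCCTA was in no replication-dependent promoter, in 2 of 14 variant promoters and in 6.24% of all, and the nonamer CATCCAACG was in no histone promoter and in 0.167% of all. A match describes the letters of the window and not occupancy by a factor.

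**Figure D1:**
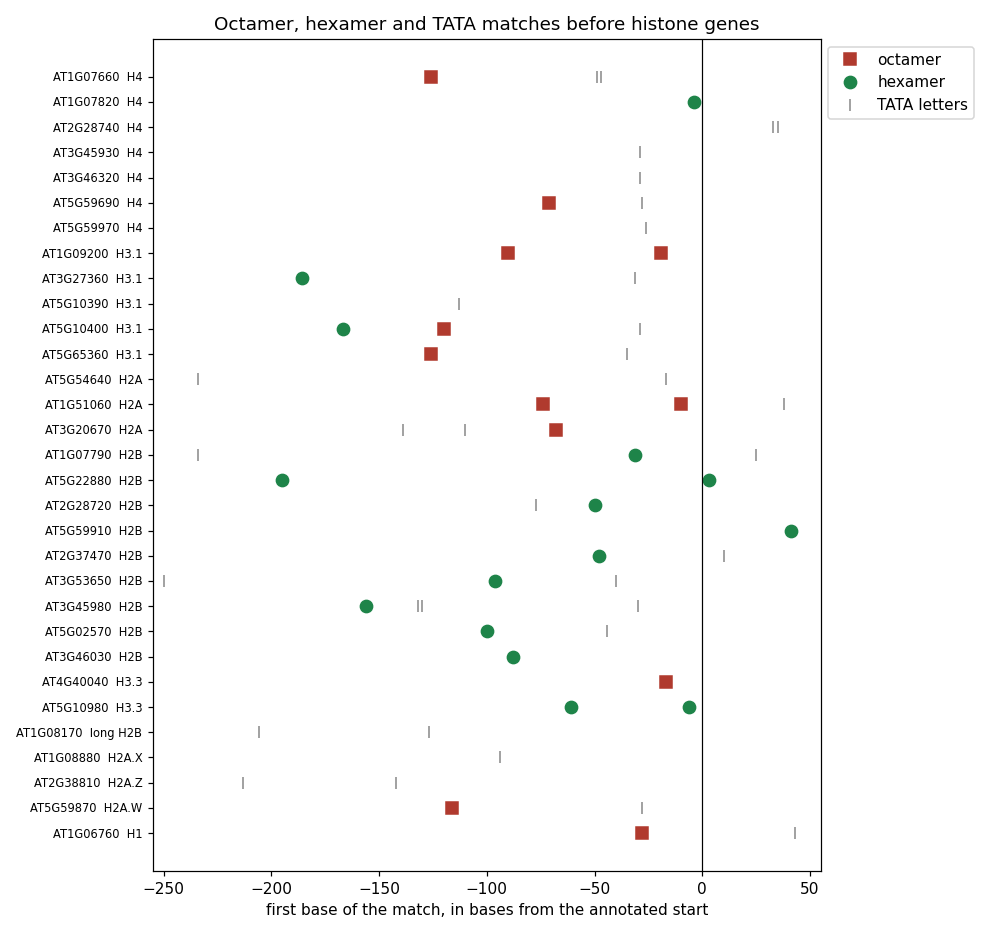
Positions of the octamer, the hexamer and TATAAA in the promoters of the histone genes that hold any of them, in bases from the annotated start (horizontal axis, 0 is the start); each row is a gene with its class. Octamers sit in rows of H4, H3.1, H2A and a few variant or linker genes. Hexamers sit in 9 rows of H2B and in those of AT1G07820 (H4), AT3G27360 and AT5G10400 (H3.1) and AT5G10980 (H3.3).

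Gene structure also differed by kind. In RefSeq TAIR10.1, 22 of the 27 replication-dependent genes had no intron; the exceptions were the 4 canonical H2A genes and AT1G07660, each with 1. Of the 14 variant genes 1 had none (AT1G08170), and all 3 H1 genes had an intron. The 8 H4 genes encode a single protein of 103 residues from coding sequences that are between 78.8% and 98.1% identical. The 5 H3.1 genes likewise encode a single protein of 136 residues, which differs from H3.3 of AT5G10980 at 4 positions, and the 10 H2B genes encode 10 different proteins. How reads shared between near-identical genes were treated is not given in the sources used here. Of the 50-base stretches in the transcript, 69.2% were unique in the genome for AT1G07660, 72.1% for AT3G46320, 74.3% for AT3G45930 and 80.6% for AT1G07820, so for these 4 reads are the most likely to be shared. Every member outside the H4 class had at least 96.9% unique stretches.

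HY5 (AT5G11260), the mutated gene, measured 13.4, 13.0 and 13.9 FPKM in wild type 1 to 3 and 3.04, 1.88 and 3.02 FPKM in hy5 4 to 6, a log2 fold change of -2.00 (SE 0.143). In the comparison over 17205 genes that reached 1 FPKM in at least 3 libraries, 3915 genes (22.8%) were past an adjusted p of 0.05 (limma on log2(FPKM + 1), Benjamini-Hochberg), 1905 of them lower in hy5 (11.1%) and 2010 higher (11.7%). Leaving out hy5 4 brought this total to 2201, and leaving out hy5 6 brought it to 2028. The median log2 fold change of all genes tested was -0.0009, and all 3 hy5 libraries lay below all 3 wild-type libraries for 3361 genes (19.5%). Sums of FPKM per library were 528554 to 556418. Nothing in the labels ties the libraries to separate plantings, and the p-values cover the spread among these 6 libraries alone, which could be technical.

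Of the 40 histone genes in the tables, 37 passed the filter, none of them through one genotype alone. In hy5, 21 of the 37 were called lower and 1 was called higher, with 15 not past the threshold, where 11.1% and 11.7% of all genes tested were called lower and higher. All 22 called genes had no overlap between the genotypes, which a call itself makes likely. Counting also genes without a call, hy5 lay wholly below wild type for 26 of the 37, beside 19.5% of all genes tested. It lay wholly above for 2, for which the share over all genes was not counted. By kind, 18 of 24 replication-dependent genes were called lower (75.0%), with a median log2 fold change of -0.47 and hy5 levels of 39.8% to 95.1% of the wild-type means. Of the 10 variant genes tested 3 were called lower (30.0%) and 1 higher, with a median of -0.26. Without hy5 6 the variant median was -0.17, and the higher call was lost without any single library except wild type 1. Of the 3 linker genes none was called, with a median of 0.03. In these bulk libraries fewer cells of a type and less RNA per cell cannot be told apart. The difference between the kinds was not tested.

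**Figure D2:**
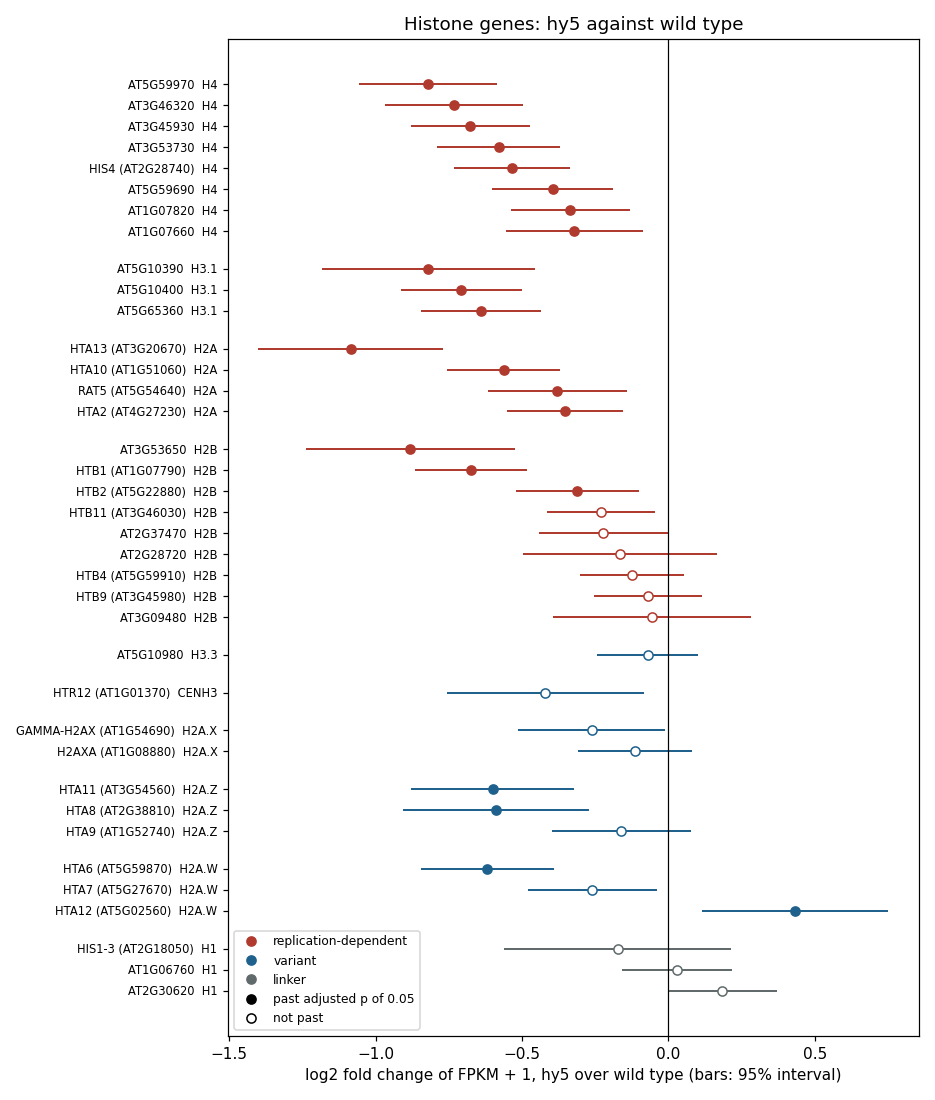
Log2 fold change of FPKM + 1 in hy5 over wild type (horizontal axis) with its 95% interval for the 37 histone genes tested, grouped by class; filled points passed the adjusted p of 0.05. The 8 H4, 3 H3.1 and 4 canonical H2A points are all filled and left of 0, H2B points reach from -0.88 to -0.06, and HTA12 is the only filled point on the right.

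H4, the partner of H3 in the core tetramer, was lower in hy5 at all 8 loci, with a median log2 fold change of -0.56. The most abundant gene, AT5G59690 (chromosome 5, 24051474 to 24052218, plus strand), carries an octamer in its promoter. It measured 127, 113 and 139 FPKM in wild type and 93.2, 102 and 91.7 FPKM in hy5 (libraries in numerical order, here and throughout), so its lowest wild-type library was above its highest hy5 library. Its level fell from 126.5 ± 13.1 to 95.7 ± 5.72 FPKM (mean ± SD, n = 3), a log2 fold change of -0.40 (SE 0.0948); the call was lost without hy5 6.

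The strongest relative fall among H4 genes was at AT5G59970 (chromosome 5, 24145831 to 24146729, minus strand), with 40.1, 41.9 and 45.4 FPKM in wild type and 23.5, 27.35 and 20.3 FPKM in hy5. Its log2 fold change was -0.82 (SE 0.108), and hy5 was left with 55.9% of the wild-type mean. This locus and AT5G59690 share 97.1% of their coding bases, while their 50-base stretches were 93.1% and 91.5% unique.

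AT3G46320 measured 50.3, 46.7 and 55.03 FPKM in wild type and 26.3, 35.0 and 29.5 FPKM in hy5, a log2 fold change of -0.73 (SE 0.108). AT3G45930, its nearest relative in coding sequence (97.4% identical), gave 49.25, 50.5 and 55.5 FPKM in wild type and 30.1, 35.2 and 30.7 FPKM in hy5, a log2 fold change of -0.68 (SE 0.0930). These are the pair with an E2F-type sequence in their promoters, and both were highest in wild type 3 and, within hy5, in hy5 5.

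AT3G53730 (chromosome 3, 19912385 to 19913515) measured 36.8, 32.8 and 36.3 FPKM in wild type and 25.6, 21.4 and 23.0 FPKM in hy5, with a log2 fold change of -0.58 (SE 0.0964). HIS4 (AT2G28740) measured 34.8, 36.5 and 38.0 FPKM in wild type and 26.5, 24.8 and 23.3 FPKM in hy5, with -0.53 (SE 0.0899). Both transcripts were 100% unique in 50-base stretches. The part of shared reads in the H4 values was not tested.

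The smallest H4 changes were at a pair of genes that also share much sequence. AT1G07820 measured 53.2, 50.03 and 55.4 FPKM in wild type and 39.9, 46.6 and 38.9 FPKM in hy5, a log2 fold change of -0.34 (SE 0.0934), and AT1G07660, the only H4 gene with an intron, measured 17.05, 16.4 and 17.1 FPKM in wild type and 15.2, 12.7 and 12.1 FPKM in hy5, a log2 fold change of -0.32 (SE 0.107). Their coding sequences are 98.1% identical. The call of AT1G07820 was lost without wild type 1, hy5 4 or hy5 6, and that of AT1G07660 without any one library but hy5 4, and with no filter.

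Summed over the 8 genes, H4 reached 409, 388 and 442 FPKM in wild type and 280.4, 305 and 269.5 FPKM in hy5, which is 69.0% of the wild-type mean. Within that sum the share of AT5G59690 was 31.1%, 29.2% and 31.5% in wild type and 33.2%, 33.5% and 34.0% in hy5, without overlap. The shares of AT5G59970 (9.81%, 10.8% and 10.3% against 8.39%, 8.96% and 7.53%) and of AT3G46320 and AT3G45930 were lower in every hy5 library. The share of AT1G07820 was higher in every hy5 library (13.0%, 12.9% and 12.5% against 14.2%, 15.3% and 14.4%). The leading H4 transcript was therefore a larger part of a smaller pool, as was AT1G07820, and no share was tested. How reads shared between near-identical H4 genes were divided is not given, which limits these shares.

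H3.1, the H3 form inserted behind replication forks, was lower at all 3 loci measured, with a median log2 fold change of -0.71. AT5G65360 (chromosome 5, 26119859 to 26120581, minus strand), the most abundant of them and an octamer gene, measured 92.0, 78.9 and 87.75 FPKM in wild type and 55.5, 59.3 and 50.3 FPKM in hy5. It fell from 86.2 ± 6.65 to 55.01 ± 4.53 FPKM (mean ± SD, n = 3), a log2 fold change of -0.64 (SE 0.0937), with no overlap between the groups.

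AT5G10400, which has both the octamer and the hexamer, measured 42.0, 41.45 and 37.7 FPKM in wild type and 22.95, 26.9 and 23.25 FPKM in hy5, a log2 fold change of -0.71 (SE 0.0947). Its neighbour AT5G10390, 577 bases away on the same strand, measured 16.4, 17.7 and 18.7 FPKM in wild type and 9.82, 12.6 and 6.89 FPKM in hy5, a log2 fold change of -0.82 (SE 0.165). The hy5 libraries of AT5G10390 were more scattered than those of its neighbour, with hy5 6 the lowest and hy5 5 the highest. The 3 genes summed to 150.4, 138 and 144 FPKM in wild type and to 88.3, 98.8 and 80.4 FPKM in hy5, 61.8% of the wild-type mean.

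Canonical H2A, which pairs with H2B on the faces of the nucleosome, was lower at all 4 loci, with a median log2 fold change of -0.47. HTA13 (AT3G20670, chromosome 3, 7229390 to 7230146, plus strand) had the largest log2 fold change of FPKM + 1 among the histone genes tested. It measured 26.5, 27.2 and 34.0 FPKM in wild type and 14.1, 15.6 and 10.3 FPKM in hy5, and fell from 29.2 ± 4.18 to 13.3 ± 2.74 FPKM (mean ± SD, n = 3), a log2 fold change of -1.09 (SE 0.143) that leaves 45.6% of the wild-type mean. An annotated gene on the opposite strand overlaps 79 bases of its 757-base span, and whether strand was used in counting is not given in the sources used here.

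The 250 bases before HTA13 are shown whole as the promoter of the histone gene with the largest fall on the log2(FPKM + 1) scale. With a pseudocount of 0.1 in place of 1 AT3G53650 fell further (-1.28 against -1.14). Beside them stand the 250 bases before HTA12, an H2A.W gene and the only one called higher. Capitals mark the octamer and TATAAA, and HTA12 has none of these letters in this stretch:
HTA13 (AT3G20670), chr3:7229140-7229389, plus strand: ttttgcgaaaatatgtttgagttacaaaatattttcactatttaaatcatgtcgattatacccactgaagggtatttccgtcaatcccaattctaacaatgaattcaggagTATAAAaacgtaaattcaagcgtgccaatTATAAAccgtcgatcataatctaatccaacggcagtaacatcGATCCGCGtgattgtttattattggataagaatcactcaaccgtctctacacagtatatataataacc
HTA12 (AT5G02560), chr5:574975-575224, plus strand: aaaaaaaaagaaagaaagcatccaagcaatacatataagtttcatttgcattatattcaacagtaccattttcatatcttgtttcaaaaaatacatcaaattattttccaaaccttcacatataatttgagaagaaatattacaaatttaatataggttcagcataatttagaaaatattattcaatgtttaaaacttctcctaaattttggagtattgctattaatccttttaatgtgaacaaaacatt

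HTA10 (AT1G51060), whose promoter holds the octamer in both directions, was the most abundant canonical H2A. It measured 71.4, 72.0 and 70.55 FPKM in wild type and 50.1, 50.7 and 43.3 FPKM in hy5, with the wild-type libraries close together, and fell from 71.3 ± 0.710 to 48.1 ± 4.10 FPKM (mean ± SD, n = 3), a log2 fold change of -0.56 (SE 0.0881). RAT5 (AT5G54640), known for a role in Agrobacterium transformation of roots, measured 25.3, 25.6 and 31.2 FPKM in wild type and 20.7, 18.7 and 22.9 FPKM in hy5, a log2 fold change of -0.38 (SE 0.109). HTA2 (AT4G27230) measured 35.5, 40.85 and 41.2 FPKM in wild type and 30.8, 30.9 and 29.5 FPKM in hy5, a log2 fold change of -0.35 (SE 0.0905). Both of the latter kept separate groups, but the RAT5 call was lost without wild type 3, hy5 4 or hy5 5 and the HTA2 call without hy5 4 or hy5 6. The class summed to 159, 166 and 177 FPKM in wild type and to 116, 116 and 106 FPKM in hy5.

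**Figure D3:**
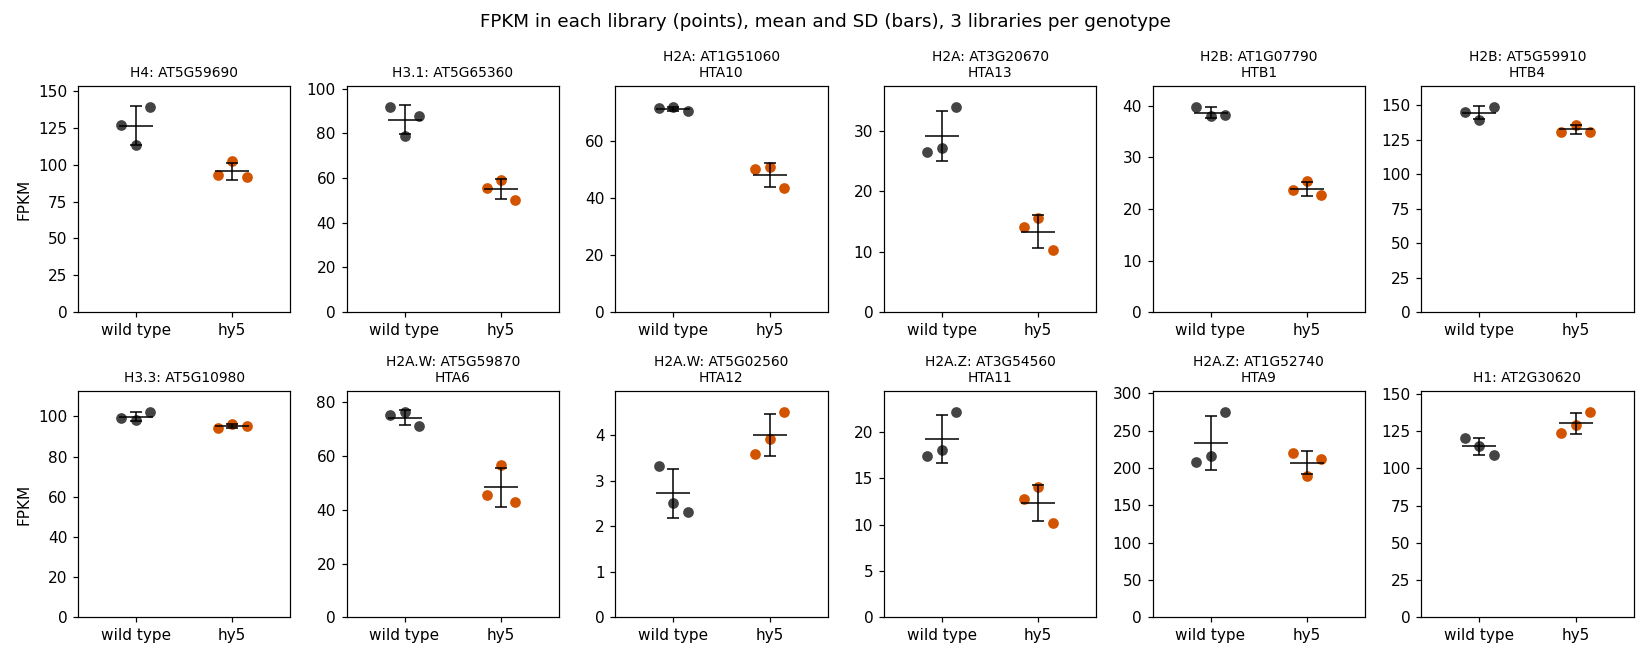
FPKM in each library (points) with the mean and SD (bars) of 12 histone genes, wild type at the left and hy5 at the right of each panel, each vertical axis starting at 0. The groups do not overlap in the panels of H4, H3.1, HTA10, HTA13, HTB1, HTA6 and HTA11, all called lower, and they overlap in that of HTA9. They also do not overlap for HTB4 and AT5G10980, with hy5 below but not called. The same holds for HTA12 (called higher) and AT2G30620 (not called), with hy5 above.

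H2B was divided. Of 9 genes tested 3 were called lower, beside 11.1% of all genes tested, and the class median was -0.22. Below 0 were 9 of 9 log2 fold changes, beside 50.1% of those of all genes tested. HTB1 (AT1G07790, chromosome 1, 2412938 to 2413790, plus strand) measured 39.8, 38.0 and 38.2 FPKM in wild type and 23.6, 25.3 and 22.7 FPKM in hy5. Its groups lay far apart against a small spread, and it fell from 38.65 ± 0.997 to 23.9 ± 1.33 FPKM (mean ± SD, n = 3), a log2 fold change of -0.67 (SE 0.0872). AT3G53650, an H2B gene with low expression, measured 3.775, 2.49 and 3.23 FPKM in wild type and 1.37, 1.55 and 0.870 FPKM in hy5, a log2 fold change of -0.88 (SE 0.165). The log2(FPKM + 1) scale understates changes at such levels, and by ratio of means this gene had the lowest value of the histone genes tested, 39.8% of wild type. HTB2 (AT5G22880) measured 87.5, 85.2 and 75.2 FPKM in wild type and 66.4, 73.0 and 60.0 FPKM in hy5, a log2 fold change of -0.31 (SE 0.0968), and its call was lost with no filter and without wild type 1, wild type 2, hy5 4 or hy5 6.

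The H2B genes with the highest levels did not pass the threshold. HTB4 (AT5G59910, chromosome 5, 24126877 to 24128162, plus strand) measured 145.5, 139 and 149 FPKM in wild type and 131, 136 and 130.5 FPKM in hy5. All hy5 libraries lay below all wild-type libraries, but the means were 145 ± 4.89 FPKM in wild type and 132.5 ± 3.06 FPKM in hy5 (mean ± SD, n = 3), and the log2 fold change of -0.13 (SE 0.0805) had a 95% interval of -0.30 to 0.05. HTB11 (AT3G46030), also without overlap, had 113 ± 3.24 FPKM in wild type and 96.3 ± 5.73 FPKM in hy5 (mean ± SD, n = 3), a log2 fold change of -0.23 with an interval of -0.41 to -0.05; it passed the threshold without hy5 5. HTB9 (AT3G45980) measured 126.5, 110.1 and 119.7 FPKM in wild type and 111, 114 and 114 FPKM in hy5, with overlapping groups and an interval of -0.25 to 0.11 around -0.07. Its span is overlapped on the opposite strand by a protein-coding gene and a long non-coding RNA gene.

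The remaining H2B genes were AT2G37470 with 19.8 ± 1.24 FPKM in wild type and 16.9 ± 1.54 FPKM in hy5 (mean ± SD, n = 3), AT2G28720 with 10.9 ± 3.02 FPKM in wild type and 9.41 ± 0.389 FPKM in hy5 (mean ± SD, n = 3) and AT3G09480 with 1.36 ± 0.0722 FPKM in wild type and 1.29 ± 0.415 FPKM in hy5 (mean ± SD, n = 3). None of the 3 was past the threshold, and the sign of the last 2 changed when single libraries were left out. AT5G02570 did not reach the filter, with 0.699, 0.291 and 0.860 FPKM in wild type and 0.179, 0.762 and 0.0855 FPKM in hy5, and it lies wholly within HTA12 on the other strand. Summed, the 10 H2B genes reached 549.8, 515 and 536 FPKM in wild type and 456, 481 and 446 FPKM in hy5, 86.4% of the wild-type mean. HTB1 made up 7.24%, 7.38% and 7.12% of H2B in wild type and 5.18%, 5.26% and 5.08% in hy5, whereas the share of HTB4 was 26.5%, 27.1% and 27.8% against 28.7%, 28.3% and 29.2%, and neither pair of ranges overlapped.

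Some of these genes are close neighbours with unlike calls, though no difference between neighbours was tested. AT2G28720 (H2B) and HIS4 (H4) converge across 1536 bases, with log2 fold changes of -0.17 (not past) and -0.53 (lower). AT3G45930 (H4) and HTB9 (H2B) are 13277 bases apart, with -0.68 (lower) and -0.07 (not past). On chromosome 5, HTB4 lies between HTA6, 10656 bases away, and AT5G59970, 17668 bases away; both neighbours were lower and HTB4 was not past the threshold. In contrast HTB1 and AT1G07820, 7298 bases apart, were both lower, as were AT3G53650 and AT3G53730, 22133 bases apart. The H3.1 genes AT5G10390 and AT5G10400, 577 bases apart, were also both lower. HTB9 and HTB11, 15370 bases apart, were both not past the threshold.

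Promoter elements and calls among the 24 replication-dependent genes tested were set side by side as a description. Of all genes tested 11.1% were called lower, and for all genes the calls were not counted by element. All 6 octamer genes were called lower, with a median log2 fold change of -0.60, as were 12 of the 18 without it, with a median of -0.37. The genes without the octamer include all 9 H2B genes tested, so octamer and class cannot be told apart in these counts. With H2B left out, all 15 genes were lower, 6 with the octamer and 9 without it, the latter with a median of -0.58. Genes counted as without it can hold a near copy, such as CACGGATC before HIS4 and TGCGGATC before AT5G59970. Of the 10 hexamer genes 5 were called lower, with a median of -0.27, against 13 of the 14 without it, with a median of -0.57. Since 8 of those 10 are H2B genes, element and class cannot be told apart. ACGT was present in 17, of which 11 were lower, and absent in 7, of which 7 were lower; the G-box was present in 1 (AT3G09480), which was not past the threshold.

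Among the variants tested, H3.3 changed least. AT5G10980 (chromosome 5, 3472405 to 3473570, minus strand), the 1 H3.3 gene measured, gave 99.4, 98.1 and 102 FPKM in wild type and 94.2, 96.0 and 94.97 FPKM in hy5. The groups did not overlap, yet the distance between them was small: 99.9 ± 2.07 FPKM in wild type and 95.05 ± 0.934 FPKM in hy5 (mean ± SD, n = 3), a log2 fold change of -0.07 (SE 0.0791) with a 95% interval of -0.24 to 0.10. It was not past the threshold, while the 3 H3.1 genes, whose protein differs at 4 positions, stood at 55.5% to 63.8% of wild type. HTR12 (AT1G01370), which encodes the centromeric H3 and has 8 introns, measured 1.82, 2.0 and 1.54 FPKM in wild type and 1.23, 1.31 and 0.733 FPKM in hy5. Its hy5 libraries were all lower, but at this level the log2 fold change of -0.42 (SE 0.155), with an interval of -0.75 to -0.09, was not past the threshold.

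H2A.Z, which marks the first nucleosomes of genes, had 2 of 3 tested members called lower, beside 11.1% of all genes tested. HTA9 (AT1G52740, chromosome 1, 19645236 to 19646485, plus strand), the most abundant histone transcript of all, measured 208, 216 and 275 FPKM in wild type and 219, 189.8 and 212 FPKM in hy5. Wild type 3 stood above the rest and the groups overlapped, giving 233 ± 36.4 FPKM in wild type and 207 ± 15.5 FPKM in hy5 (mean ± SD, n = 3) and a log2 fold change of -0.16 (SE 0.109) with an interval of -0.40 to 0.07, not past the threshold. HTA11 (AT3G54560) measured 17.4, 18.1 and 22.15 FPKM in wild type and 12.8, 14.1 and 10.2 FPKM in hy5 and fell to 64.4% of wild type, a log2 fold change of -0.60 (SE 0.128). HTA8 (AT2G38810) measured 9.28, 5.96 and 7.45 FPKM in wild type and 4.34, 4.45 and 5.09 FPKM in hy5, a log2 fold change of -0.59 (SE 0.147), a call lost without wild type 1. HTA4 (AT4G13570) was listed at 0 in all 6 libraries.

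H2A.W, the heterochromatic H2A with an extended tail, moved in both directions. HTA6 (AT5G59870, chromosome 5, 24115354 to 24116220, minus strand), the H2A.W gene with an octamer, measured 75.25, 76.2 and 71.0 FPKM in wild type and 45.5, 56.6 and 42.7 FPKM in hy5. It fell from 74.15 ± 2.80 to 48.3 ± 7.35 FPKM (mean ± SD, n = 3), a log2 fold change of -0.62 (SE 0.104), with every hy5 library below every wild-type library. HTA12 (AT5G02560) was the only histone gene called higher, with 3.33, 2.51 and 2.31 FPKM in wild type and 3.58, 3.915 and 4.50 FPKM in hy5 and a log2 fold change of 0.43 (SE 0.146), interval 0.12 to 0.75. That call was lost with no filter and without any single library except wild type 1, and the antisense-overlapping AT5G02570 cannot be separated from it if strand was not used. HTA7 (AT5G27670), with 33.4 ± 1.58 FPKM in wild type and 27.8 ± 3.23 FPKM in hy5 (mean ± SD, n = 3), had no overlap between genotypes but was not past the threshold.

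H2A.X, whose phosphorylated form marks DNA breaks, showed no call at either gene. H2AXA (AT1G08880) measured 41.3, 46.8 and 46.4 FPKM in wild type and 38.9, 42.6 and 42.6 FPKM in hy5, with overlapping groups, a log2 fold change of -0.11 (SE 0.0890) and an interval of -0.30 to 0.08. GAMMA-H2AX (AT1G54690) had 27.3 ± 2.75 FPKM in wild type and 22.7 ± 3.31 FPKM in hy5 (mean ± SD, n = 3), also with overlapping libraries, a log2 fold change of -0.26 with an interval of -0.51 to -0.01. The long H2B of AT1G08170, set apart as a variant by its 243 residues, was near or at 0: it was listed at 0 in wild type 1, wild type 3 and hy5 5, and at 0.0642, 0.0295 and 0.0298 FPKM in wild type 2, hy5 4 and hy5 6.

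Within the H2A family the mix of types shifted slightly. Canonical H2A supplied 27.6%, 28.0% and 26.7% of the summed family FPKM in wild type and 23.5%, 24.0% and 22.7% in hy5, without overlap. The share of H2A.X was 12.0%, 12.1% and 11.5% in wild type and 12.6%, 14.2% and 13.2% in hy5, also without overlap and in the other direction. H2A.Z (40.6% to 45.9% against 43.1% to 48.8%) and H2A.W (15.9% to 19.5% against 15.3% to 18.7%) overlapped. A share can go up while the level goes down: H2A.X summed to 88.7% of wild type in hy5.

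**Figure D4:**
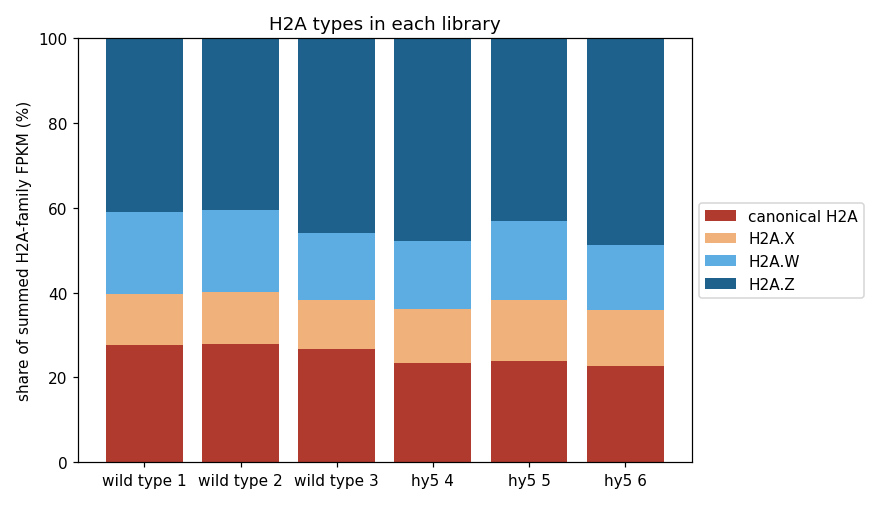
Share of summed H2A-family FPKM (vertical axis, percent) held by canonical H2A, H2A.X, H2A.W and H2A.Z in each of the 6 libraries. Canonical H2A, at the bottom, is 26.7% to 28.0% in the wild-type bars and 22.7% to 24.0% in the hy5 bars.

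The H1 linker histones showed no call. AT2G30620 (chromosome 2, 13044931 to 13046682, plus strand), the most abundant, measured 120.4, 115 and 109 FPKM in wild type and 124, 129 and 138 FPKM in hy5. Here every hy5 library was above every wild-type library, with a log2 fold change of 0.18 (SE 0.0849), but it was not past the threshold. AT1G06760, which has an octamer in its promoter, had 69.4 ± 3.61 FPKM in wild type and 70.8 ± 4.18 FPKM in hy5 (mean ± SD, n = 3), and HIS1-3 (AT2G18050), the H1 gene known to respond to drought and abscisic acid, had 35.2 ± 7.41 FPKM in wild type and 31.1 ± 6.44 FPKM in hy5 (mean ± SD, n = 3); both overlapped. Linker transcripts together came to 106% of the wild-type mean in hy5, with overlapping libraries (204 to 227 FPKM in wild type, 226 to 242 FPKM in hy5). Replication-dependent ones came to 75.4% (1258 ± 47.3 to 948 ± 50 FPKM, mean ± SD, n = 3). Variants came to 85.4%, in a sum of which HTA9 was the largest part.

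The libraries were not level within a genotype. Over the 24 replication-dependent genes tested, wild type 3 was the highest wild-type library for 14 and wild type 2 the lowest for 12. In hy5, hy5 5 was the highest for 17 and hy5 6 the lowest for 16. The same libraries were thus at the extremes for many of these genes. The median coefficient of variation over the members was 6.62% in wild type and 9.10% in hy5.

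Genes that act with histones or with the cell cycle were counted from lists of known members. Of 20 histone chaperones and remodellers tested, 2 were lower and 2 higher, which is near the 11.1% and 11.7% of all genes tested, with a median log2 fold change of -0.01. The 20 genes summed to 286 to 351 FPKM in wild type and 374 to 386 FPKM in hy5. NAP1;2, a chaperone of H2A and H2B, rose from 102 ± 18.1 to 149 ± 3.64 FPKM (mean ± SD, n = 3), a log2 fold change of 0.56 (SE 0.115). ARP6, a subunit of the complex that deposits H2A.Z, fell from 26.1 ± 4.28 to 18.1 ± 0.387 FPKM (n = 3), with -0.49 (SE 0.114). NAP1;1, of the same family as NAP1;2, rose from 40.9 ± 7.58 to 53.8 ± 0.980 FPKM (0.40), and ASF1B, which carries H3 and H4, fell, with -0.39. NAP1;2 and NAP1;1 had the highest levels of the list, so the sums above follow them more than the other genes.

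Of 21 S-phase genes 6 were lower and none higher, beside 11.1% and 11.7% of all genes tested, with a median of -0.26 and summed levels of 149 to 175 FPKM in wild type and 125 to 145 FPKM in hy5. TSO2, a subunit of ribonucleotide reductase, fell from 38.2 ± 1.77 to 26.7 ± 3.48 FPKM (n = 3), a log2 fold change of -0.50, PCNA1, the sliding clamp of DNA polymerase, from 8.70 ± 0.352 to 5.17 ± 1.17 FPKM (-0.67), and MCM4, of the replicative helicase, from 4.22 ± 0.222 to 2.54 ± 0.289 FPKM (-0.56). Of 11 G2/M genes tested 7 were lower and none higher, beside the same shares, with a median of -0.44 and sums over the 12 listed of 73.7 to 86.2 FPKM and 55.5 to 59.7 FPKM. CDC20.1, an activator of the anaphase-promoting complex, fell from 9.53 ± 0.803 to 3.96 ± 0.608 FPKM (-1.09), the mitotic cyclin gene CYC1BAT from 7.59 ± 0.487 to 4.98 ± 0.385 FPKM (-0.52), and AUR2, a mitotic kinase, from 3.39 ± 0.322 to 1.94 ± 0.303 FPKM (-0.58). Lower values thus occurred in lists of both phases, and their part in the histone values was not tested.

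**Figure D5:**
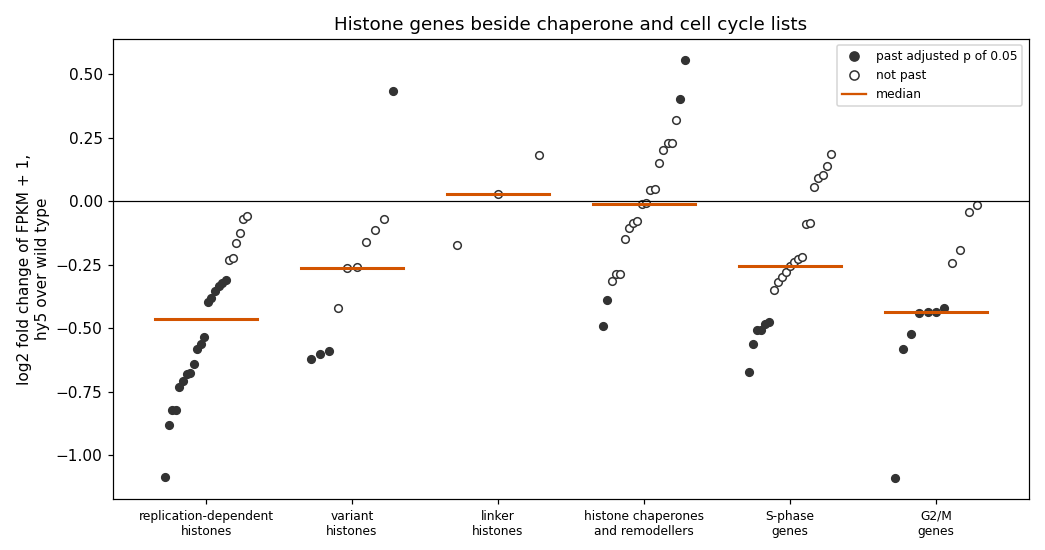
Log2 fold change of FPKM + 1 in hy5 over wild type (vertical axis) for each gene tested in 3 kinds of histone genes and 3 other lists; filled points passed the adjusted p of 0.05 and the orange line is the list's median. Medians are -0.47, -0.26 and 0.03 for replication-dependent, variant and linker histones, and -0.01, -0.26 and -0.44 for chaperones, S-phase and G2/M genes.

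Markers of meristems, where most division takes place, were few. Of 10 shoot and root meristem regulators 5 were tested, and 2 were called higher and none lower, beside 11.7% and 11.1% of all genes tested. With so few genes no reading is made of these counts. The sum of the list was 80.9 to 94.2 FPKM in wild type and 87.0 to 99.3 FPKM in hy5. STM, which keeps shoot meristem cells undifferentiated, rose from 3.18 ± 0.495 to 6.72 ± 1.09 FPKM (n = 3), a log2 fold change of 0.88, and SHR, a regulator of root patterning, from 15.4 ± 0.932 to 19.0 ± 0.389 FPKM (0.29). CLV1, SCR and KNAT1 were not past the threshold, with log2 fold changes of -0.22, -0.15 and 0.47. The stem cell markers WUS and CLV3 were at or near 0 in every library, and PLT1, PLT2 and WOX5 of the root tip stayed under 1 FPKM. The 5 seed genes listed summed to 34.2 to 216 FPKM in wild type and 1.48 to 8.25 FPKM in hy5. SESA1, a seed storage albumin, was at 5.77, 30.9 and 13.3 FPKM in wild type and at 0.261, 0.0422 and 0 FPKM in hy5. SESA3 was at 5.24, 40.9 and 18.2 FPKM against 0.0416, 0.0408 and 0, and SESA5 at 7.07, 71.7 and 12.6 FPKM against 0.228, 0 and 0. These 3 passed the filter through wild type alone, where they are high, so no count of calls is given for the seed list. Of 4 dark-induced genes 3 were tested and 1 was higher, beside 11.7% of all genes tested, again too few for a reading. That gene was ASN1, from 24.5 ± 5.13 to 69.5 ± 23.6 FPKM (n = 3). The list summed to 179.5 to 253 FPKM in wild type and 261 to 512 FPKM in hy5. SEN1 (means 64.7 and 160 FPKM) and DIN10 (119 and 177 FPKM), neither past the threshold, were larger parts of these sums than ASN1. The part of seed RNA and of dark-induced expression in the histone values was not tested.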

How the data were processed

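RNA-seq was measured in 6 libraries of whole Arabidopsis seedlings, grouped by the sample titles into 3 wild-type and 3 hy5-215 libraries. The authors deposited a table of FPKM per gene for each library, per the file headers. Tools listed in the submitters' processing notes, with no role given, are Cufflinks, TopHat, Bowtie2, HISAT2 2.2.1.0, DESeq 1.18.0 and Trimmomatic 0.36. The genome build named there is TAIR10. The annotation, the use of strand, the treatment of reads shared by similar genes and any selection of polyadenylated RNA are details not given in the sources used here. Without read counts, absolute depth is unknown and no counting interval is given. FPKM sums were similar between libraries (528554 to 556418), 16859 to 17123 genes reached 1 FPKM, and 4568 genes were listed at 0 in all 6. Values above 0 were never equal between libraries.

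All 26984 genes matched RefSeq locus tags (TAIR10.1), the source of all symbols, gene models and sequences printed. Genes with no symbol there are named by locus. Values were analysed as log2(FPKM + 1) for genes that reached 1 FPKM in 3 or more libraries, with limma 3.58.1 in R 4.3.3 (genotype as sole term, empirical Bayes with trend and robust settings, Benjamini-Hochberg adjustment over 17205 genes, threshold 0.05). The script was tested on simulated data. Fold changes are on the log2(FPKM + 1) scale, with 95% intervals from the same fit, and sums, shares and ratios of means use FPKM. Uniqueness counted 50-base stretches of each transcript that occur once in the genome, on either strand. Python 3.11.15, pandas 2.3.3, NumPy 2.4.6, SciPy 1.17.1 and matplotlib 3.10.9 were used.

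The histone genes and all other lists were chosen with earlier results of these data known. Every histone gene is accounted for. All library values are given for the most abundant gene of each class, for genes past the threshold without overlap and for genes listed at 0 in a library. From each other list up to 3 genes past the threshold with the smallest p are named with their values. ASF1B completes a small count, and the meristem markers without a call, SEN1 and DIN10 were named after their values were seen. Alternatives were other pseudocounts (0.1 and 5), no filter, a filter at 5 FPKM, 3 rescalings (median ratio, upper quartile, quantile) and leaving out each library.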

Additional observations from a re-analysis of the deposited data

How the results depend on the processing

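Under 13 alternatives, 14 of the 22 called histone genes stayed past the threshold wherever they were tested, all of them lower in hy5, and 8 lost the call under at least 1 (AT1G07660, AT1G07820, AT5G59690, HTB2, RAT5, HTA2, HTA8 and HTA12). The 21 genes called lower became 19 with no filter, 20 with a filter at 5 FPKM and 16 to 20 when 1 library was left out, and the 18 replication-dependent ones became 16, 17 and 13 to 17. The 1 gene called higher became 0 with no filter, 0 with a filter at 5 FPKM, where HTA12 was not tested, and 0 to 1 when 1 library was left out. The whole-table count of 3915 ranged from 2028 to 4309 when 1 library was left out. The median of the replication-dependent genes, -0.47, was -0.38 with a pseudocount of 5, which shrinks all changes of low values by construction. That of the variant genes, -0.26, ranged from -0.33 without hy5 5 to -0.17 without hy5 6. The sign changed for AT1G06760 (0.03; -0.0025 with quantile normalization, -0.0188 to 0.0682 when 1 library was left out, below 0 without wild type 3 or hy5 5), AT2G28720 (-0.334 to 0.0249 when 1 library was left out, above 0 without wild type 3) and AT3G09480 (-0.1929 to 0.0645, above 0 without hy5 5). None of these was called, and the cause was not tested. Rescaling kept 21 lower and 1 higher. No paired analysis was possible because the titles number the wild-type libraries 1 to 3 and the hy5 libraries 4 to 6, so the genotypes share no number. With 3 libraries a genotype and no read counts, counting error at low FPKM could not be separated from other spread.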
